A study of Mus musculus with 13 samples.

Results

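Kdr, Des, Otx2 and Egfl7 are 4 of the 15176 genes in the deposited expression table of a study in which mouse fibroblasts were reprogrammed with small molecules. They are genes of blood vessels (Kdr, Egfl7), muscle (Des) and the front of the embryo (Otx2), and were chosen by symbol because they stood high in a library labelled as Oct4-GFP-positive clusters or colonies. The choice had no numeric threshold. Their levels in these 2 libraries are therefore given as a description, with no test, and tests are kept to comparisons between other groups.

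RNA-seq of 13 libraries gave RPKM, reads scaled to the length of a gene and to the reads of a library. GFP+ clusters and GFP+ colonies, 1 library each, were picked from C57xICR embryonic fibroblasts under the treatment coded VC6TF+Z, and GFP- cells (n = 2) from the same kind of cells under VC6TF. CiPSC lines 6 and 11 (n = 2), chemically induced pluripotent stem cells of C57xICR origin, carry the treatment code VC6TFMB+Z. ESC (n = 4) are untreated embryonic stem cells, all labelled as line R1, strain 129, although the growth description names both R1 and TT2. MEF (n = 3) are untreated C57xICR embryonic fibroblasts. The GFP reports activity of Oct4, the pluripotency factor encoded by Pou5f1. ESC and CiPSC grew on feeder layers of mitotically inactivated MEF, and nothing in the labels says that feeders were removed. In every comparison with ESC, strain and cell type cannot be told apart. Separate cultures are not stated for the replicates, so p-values measure only the spread between these libraries, which may be technical.

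The values appear to be on 2 scales, which the labels do not state. In 10 libraries RPKM is per kilobase of gene span, introns included, and the depth was estimated as 8.89 to 17.72 M reads. In the other 3 libraries, CiPSC lines 6 and 11 with ESC replicate 4, few values gave whole reads per gene span. They were taken as RPKM per kilobase of exon, though no exon length was tried. The depth of these 3 libraries is unknown, and they are compared only with one another. The GFP+ colonies, MEF replicate 3 and ESC replicate 3 list an unmeasured gene at 0.001, while the other 7 gene-span libraries list it at 0. Mean RPKM over all genes was 10.8, 7.87 and 9.38 in the former, in that order, and 4.46 to 5.32 in the other 7. Levels and sums below are not adjusted for this, except where median-ratio scaling is named. The label of the clusters was checked with Pou5f1, which had 0.26 RPKM in GFP+ clusters, 124 in GFP+ colonies, 0.191 and 0.429 in GFP- cells, 86.1 to 152 in the gene-span ESC and 0 to 0.154 in MEF. Pou5f1 in the library labelled GFP+ clusters thus lay between both GFP- libraries. The fibroblast surface gene Thy1 stood at 64.6 RPKM in GFP+ clusters, 3.97 in GFP+ colonies, 106 and 127 in GFP- cells, 1.31 to 2.6 in ESC and 56.8 to 186 in MEF.

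Kdr encodes the main signalling receptor for vascular endothelial growth factor (VEGF) on endothelial cells and marks early mesoderm that gives rise to vessels and blood. Egfl7 encodes a secreted protein made mainly by endothelial cells, and a microRNA lies in one of its introns. Des encodes desmin, the intermediate filament that ties the contractile units of muscle cells together and is also found in pericytes. Otx2 encodes a homeodomain transcription factor needed for the forebrain and midbrain, active before that in the anterior visceral endoderm and in the epiblast as it leaves the naive state.

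The start regions of the 4 genes are shown because the genes stood high in 2 different libraries, so that what these regions do and do not share can be read beside the expression values. Each is the 250 bases before the most upstream start in the set of start regions, read 5′ to 3′ on the strand of the gene (RefSeq, GRCm38.p6). Motif matches are in capitals. For Kdr the RefSeq gene span reaches further upstream, to position 75979072, so its window lies inside that span. The motifs searched on both strands were GATAA (GATA factors), TAATCC (OTX-type homeodomain factors), CANNTG (the E-box of basic helix-loop-helix factors), CCGGAA (ETS factors) and the CArG box of serum response factor. All 4 genes had an entry.
Kdr, chr5:75978456-75978705, minus strand: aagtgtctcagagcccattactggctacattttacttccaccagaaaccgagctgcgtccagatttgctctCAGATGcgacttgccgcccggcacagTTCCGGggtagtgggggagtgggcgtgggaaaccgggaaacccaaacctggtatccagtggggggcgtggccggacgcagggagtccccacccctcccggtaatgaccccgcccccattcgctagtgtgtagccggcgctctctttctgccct
Des, chr1:75360042-75360291, plus strand: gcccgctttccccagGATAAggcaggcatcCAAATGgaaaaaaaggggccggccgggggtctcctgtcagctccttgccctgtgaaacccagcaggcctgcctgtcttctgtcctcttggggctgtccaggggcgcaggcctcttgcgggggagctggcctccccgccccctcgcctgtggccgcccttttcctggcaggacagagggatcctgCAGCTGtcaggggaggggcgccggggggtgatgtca
Otx2, chr14:48667645-48667894, minus strand: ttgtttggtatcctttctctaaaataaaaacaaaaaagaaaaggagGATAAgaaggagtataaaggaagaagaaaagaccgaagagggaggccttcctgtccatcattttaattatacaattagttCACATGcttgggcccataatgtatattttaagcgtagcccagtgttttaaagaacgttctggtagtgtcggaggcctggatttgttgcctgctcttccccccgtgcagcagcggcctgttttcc
Egfl7, chr2:26580833-26581082, plus strand: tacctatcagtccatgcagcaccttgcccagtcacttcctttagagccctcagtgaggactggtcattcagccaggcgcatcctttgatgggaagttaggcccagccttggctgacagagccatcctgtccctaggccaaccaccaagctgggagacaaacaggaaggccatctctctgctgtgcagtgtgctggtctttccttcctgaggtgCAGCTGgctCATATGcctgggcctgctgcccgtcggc

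Each region held an E-box, with 1 in Kdr and Otx2 and 2 in Des and Egfl7. An E-box of these letters was in 66.1% of 27018 start regions of the same length. GATAA was found once in Des and once in Otx2, and was in 23.0% of all start regions. Kdr alone of the 4 had a CCGGAA match, which 12.2% of start regions held. TAATCC (6.37% of start regions) and the CArG box (1.41%) were in none of the 4 windows. The motifs searched did not overlap in these windows. GC content was 67.2% in Des, 61.6% in Kdr, 58.0% in Egfl7 and 42.0% in Otx2, beside a median of 52.0% over all start regions.

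**Figure D1:**
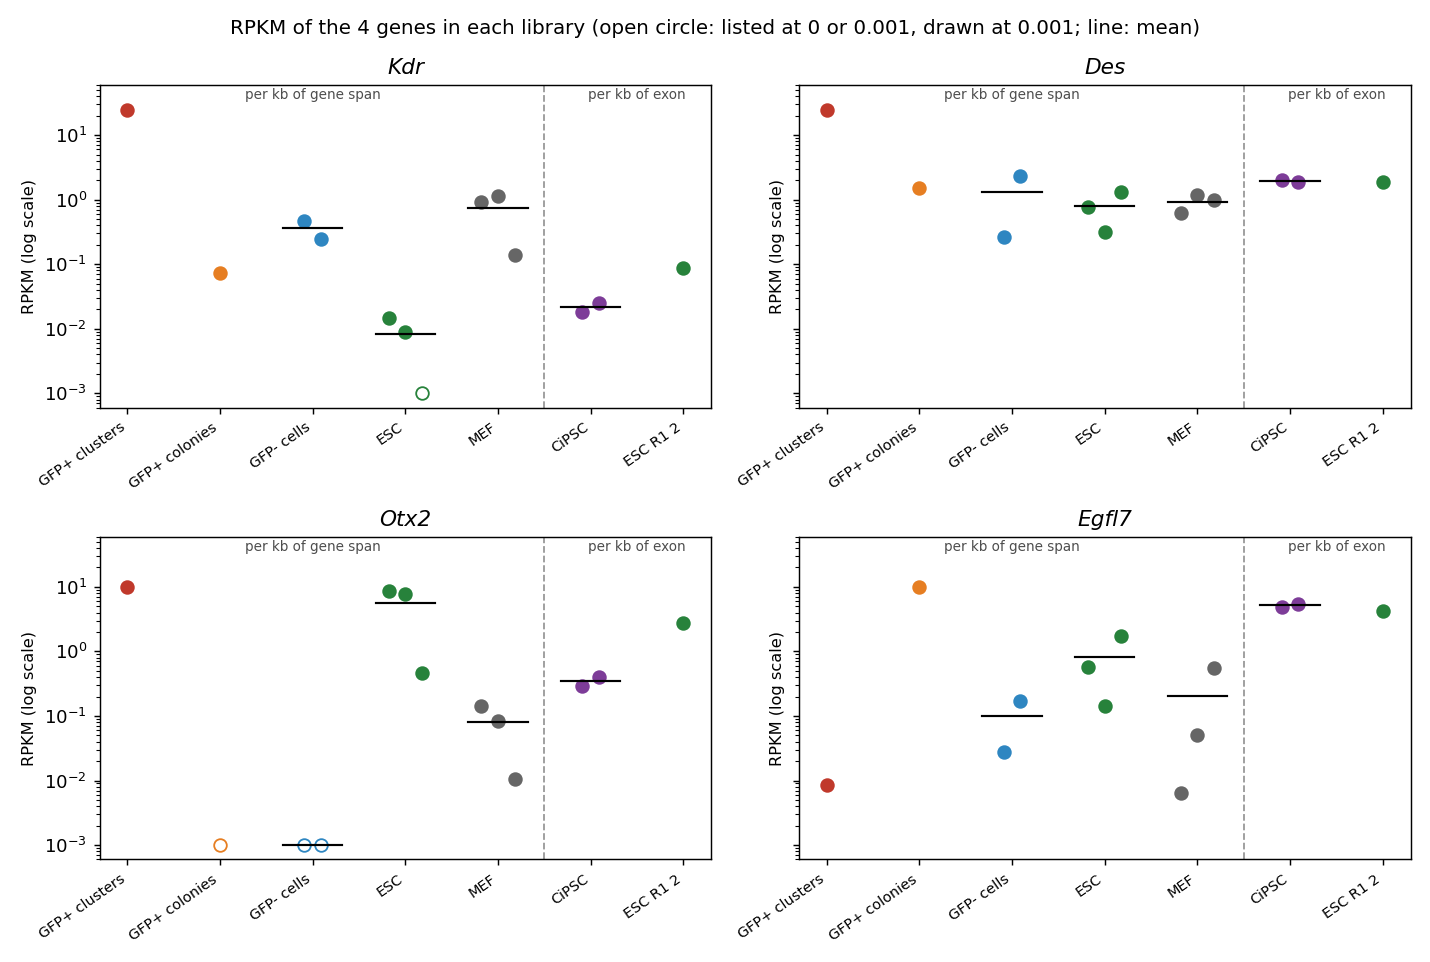
RPKM of Kdr, Des, Otx2 and Egfl7 on a log axis, with 1 point per library and a line at the group mean; open circles are libraries that list the gene at 0 or 0.001, drawn at 0.001. Kdr, Des and Otx2 had their highest gene-span point in GFP+ clusters (24.6, 24.9 and 10.0 RPKM), Otx2 close to 2 ESC libraries, and Egfl7 had its highest in GFP+ colonies (10.1 RPKM). Points right of the dashed line were taken as per kilobase of exon and are not comparable with those on its left.

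Kdr stood at 24.6 RPKM in GFP+ clusters and at 0.072 RPKM in GFP+ colonies. GFP- cells had 0.469 and 0.25 RPKM, ESC replicates 1, 2 and 3 had 0.0148, 0.00905 and a listed 0.001, and MEF replicates 1, 2 and 3 had 0.922, 1.15 and 0.139. The clusters lay above every other gene-span library, 21.4 times the highest of them (MEF replicate 2). An estimated 9992 reads carry the value in the clusters, with an exact 95% Poisson interval of 24.1 to 25.1 RPKM, which covers counting error only. The difference in log2(RPKM + 1) of the clusters from the group mean was 4.24 for GFP- cells, 4.67 for ESC and 3.93 for MEF. Of all 10647 genes tested, 11.4% had a difference of 1 or more from GFP- cells in this direction, 13.6% from ESC and 10.8% from MEF. Ranked by the ratio of the clusters to the highest other library, with 0.1 RPKM added to both, Kdr was rank 1 of 10647. This is the contrast it was chosen on, and nothing is read from the rank.

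Below the clusters the order of mean Kdr levels was MEF (0.738 ± 0.531, SD, n = 3), GFP- cells (0.36 ± 0.155, n = 2), colonies and ESC (0.00829 ± 0.00695, n = 3). The range of GFP- cells lay within that of MEF. MEF replicate 3, one of the libraries that list unmeasured genes at 0.001, was the low MEF library. ESC replicate 3, the lowest of the gene-span ESC, and the colonies belong to the same kind. GFP+ colonies lay below every GFP- and MEF library and above every gene-span ESC library. In ESC the estimated reads were 9, 5 and 0, so the level there is close to the limit of detection. In a bulk library, fewer cells of a type and less RNA per cell cannot be told apart.

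The VEGF ligand genes differed from one another in the clusters. The ligand gene Vegfa had 13.8 RPKM in GFP+ clusters, 5.62 in GFP+ colonies, 3.02 and 11.5 in GFP- cells, 0.415, 0.118 and 1.97 in ESC and 2.21, 3.15 and 7.73 in MEF. Vegfb, a related ligand that binds the receptor encoded by Flt1, had 19.3 RPKM in GFP+ clusters, 3.31 in GFP+ colonies, 0.174 and 0.15 in GFP- cells, 4.94, 4.93 and 3.89 in ESC and 1.35, 2.09 and 10.9 in MEF. The co-receptor gene Nrp1 had 1.83 RPKM in GFP+ clusters, 0.0537 in GFP+ colonies, 0.666 and 1.17 in GFP- cells, 0.00338 to 0.0157 in ESC and 1.13 to 1.47 in MEF. These 3 were the genes with their highest level in the clusters, of 9 VEGF ligand and receptor genes measured beside Kdr. Over all tested genes, those that reached 1 RPKM in 2 or more libraries, the clusters were above every other gene-span library in 12.9%. Of the 9 genes, 8 were tested. Vegfa in the clusters was close to its value in 1 of the GFP- libraries. The other 3 measured ligand genes were low there. Figf, which encodes a growth factor of lymphatic vessels, had 0.111 RPKM in GFP+ clusters, 0.354 in GFP+ colonies, 1.53 and 0.622 in GFP- cells and 3.27, 3.35 and 3.7 in MEF. Vegfc, another lymphatic growth factor gene, had 0.0103 RPKM in GFP+ clusters, and Pgf, the placental growth factor gene, had 0.263. Flt1, the decoy receptor of the family, had 0.544 RPKM in GFP+ clusters, 1.41 in GFP+ colonies and 2.48, 2.4 and 0.319 in MEF replicates 1, 2 and 3. Flt4, the receptor of lymphatic vessels, had 0.106 RPKM in GFP+ clusters.

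Most other endothelial genes were near 0 in the clusters. Of 16 measured endothelial genes other than Kdr and Egfl7, 12 were under 0.1 RPKM in the clusters. The share of all genes under 0.1 RPKM was not counted, and the median over all genes in the clusters was 0.233 RPKM. Among the defining ones, the junction genes Cdh5 and Pecam1 had 0.00784 and 0.00116 RPKM there, and the receptor gene Tek had 0.00331. Robo4, Sox18, Etv2, Icam2 and Vwf were listed at 0 in the clusters. The clusters were the highest library for 3 of the 16, beside 12.9% of all tested genes, and 5 of the 16 were tested. Cd34, a surface protein of endothelial and blood progenitors that fibroblasts also carry, had 6.25 RPKM in GFP+ clusters and 4.34 and 2.85 in GFP- cells. Plvap, a protein of endothelial openings, had 4.45 RPKM in GFP+ clusters and 0.0709 and 0.138 in GFP- cells. Ecscr, a surface protein of endothelial cells, had 2.48 RPKM in GFP+ clusters and 0 and 0.0313 in GFP- cells.

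**Figure D2:**
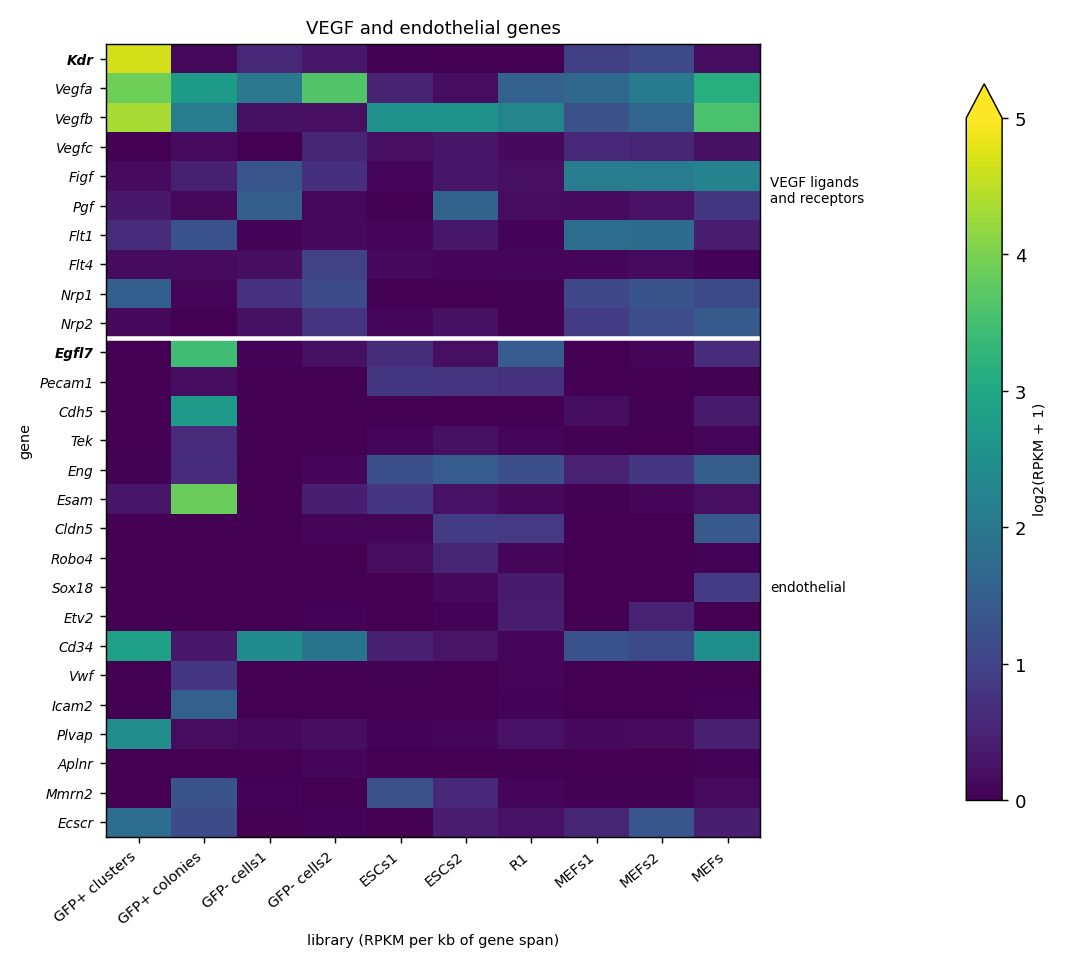
Colour gives log2(RPKM + 1) of VEGF ligand and receptor genes (upper block) and endothelial genes (lower block) in the 10 gene-span libraries, 1 column each. Kdr, Vegfa and Vegfb are bright in the GFP+ clusters column, while Egfl7, Cdh5 and Esam are bright in the GFP+ colonies column (10.1, 5.42 and 13.4 RPKM).

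Egfl7 was high in the library labelled GFP+ colonies. It stood at 0.00855 RPKM (1 estimated read) in GFP+ clusters and at 10.1 RPKM in GFP+ colonies. GFP- cells had 0.0276 and 0.17 RPKM, ESC replicates 1, 2 and 3 had 0.574, 0.145 and 1.71, and MEF replicates 1, 2 and 3 had 0.00643, 0.0516 and 0.547. The colonies were above every other gene-span library, 5.9 times ESC replicate 3, with an estimated 1332 reads and a 95% Poisson interval of 9.56 to 10.7 RPKM. The difference in log2(RPKM + 1) of the colonies from the group mean was 3.34 for GFP- cells, 2.71 for ESC and 3.24 for MEF. A difference of 1 or more in this direction was found in 22.7%, 14.9% and 14.3% of all tested genes. The colonies were above every other gene-span library in 14.0% of tested genes and at 5 times or more of every other in 0.582%. Egfl7 was chosen for its level in the colonies, so nothing is read from these shares.

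In both MEF and ESC, the library that lists unmeasured genes at 0.001 (replicate 3 of each) had the highest Egfl7 level of its group, and the colonies belong to the same kind. Against these 2 libraries alone, the difference of the colonies in log2(RPKM + 1) was 2.03 for ESC and 2.84 for MEF. MEF replicate 3 also stood apart in other cell type markers. The macrophage genes Lyz2 and Cd68 had 97.2 and 71.7 RPKM there, against 15.0 and 2.56 in MEF replicate 1 and 22.6 and 5.86 in MEF replicate 2. The summed level of the 16 endothelial genes was 10.3 RPKM in MEF replicate 3, against 2.51 and 4.04 in MEF replicates 1 and 2. Their part in the Egfl7 level of MEF replicate 3 was not tested.

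The colonies held some other endothelial genes beside Egfl7. They were the highest gene-span library for 6 of the 16: Esam (13.4 RPKM) and Cdh5 (5.42), both of endothelial junctions, Icam2 (1.89), Mmrn2 (1.42), Vwf (0.735) and the receptor gene Tek (0.519). Over all tested genes the colonies were highest in 14.0%, and 5 of the 16 were tested. Of the 6, Mmrn2 alone was tested, with 1.35 RPKM in ESC replicate 1, so this share does not apply to the others. In GFP- cells Esam had 0 and 0.34 RPKM and Cdh5 had 0.00211 and 0.00903 RPKM. Pecam1 had 0.119 RPKM in the colonies, below its 0.66 to 0.759 in the gene-span ESC, and Cldn5, Robo4, Sox18 and Etv2 were at the listed 0.001. The summed level of the 16 genes was 13.4 RPKM in GFP+ clusters, 25.6 in GFP+ colonies, 4.45 and 3.6 in GFP- cells, 4.11 to 5.22 in ESC and 2.51 to 10.3 in MEF. Sums were not adjusted for the higher mean RPKM of the colonies and of replicate 3 of ESC and MEF. Blood and macrophage genes, measured for 11 members, summed to 0.658 RPKM in GFP+ clusters, 21.9 in GFP+ colonies, 0.731 and 1.78 in GFP- cells, 3.55 to 11.3 in ESC and 19.4 to 196 in MEF. The blood progenitor factor genes Tal1 and Lmo2 were listed at 0 in the clusters.

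Extraembryonic endoderm genes were also high in the colonies. The colonies were the highest gene-span library for 12 of the 13 measured, beside 14.0% of all tested genes, and 9 of the 13 were tested. Among the 12 were the basement membrane genes Sparc (697 RPKM), Col4a1 (95.5) and Lamb1 (58.3) and the endoderm factor gene Foxa2 (21.6). In GFP+ clusters the summed level of the 13, of which Sparc made up 63.3 RPKM, lay between those of the GFP- libraries. It was 997 RPKM in GFP+ colonies, 114 and 93.3 in GFP- cells, 6.19 to 20.2 in ESC and 192 to 265 in MEF. Their part in the Egfl7 level of the colonies was not tested.

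Des stood at 24.9 RPKM in GFP+ clusters and at 1.5 RPKM in GFP+ colonies. GFP- cells had 0.263 and 2.36 RPKM, ESC replicates 1, 2 and 3 had 0.784, 0.32 and 1.32, and MEF replicates 1, 2 and 3 had 0.623, 1.19 and 0.995. The clusters were above every other gene-span library, 10.5 times the second GFP- library, with an estimated 1827 reads and a 95% Poisson interval of 23.7 to 26.0 RPKM. The difference in log2(RPKM + 1) from the group mean was 3.65 for GFP- cells, 3.88 for ESC and 3.75 for MEF. The clusters were at 5 times or more of every other gene-span library in 0.376% of tested genes, and Kdr and Des are among these. Both were chosen for their level in the clusters, so nothing is read from this. Outside the clusters the groups overlapped. Des averaged 1.31 ± 1.48 RPKM in GFP- cells (SD, n = 2), 0.807 ± 0.499 in ESC and 0.935 ± 0.287 in MEF (n = 3 each). The 2 GFP- libraries differed from each other beyond counting error, with 95% Poisson intervals of 0.169 to 0.392 and 2.05 to 2.71 RPKM.

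Muscle genes were near the lower end of the scale in the clusters. Of 21 measured skeletal and cardiac muscle genes other than Des, 19 were under 0.1 RPKM in the clusters and 0 reached 1 RPKM. The median over all genes there was 0.233 RPKM. The myogenic factor gene Myod1 and the muscle genes Actc1, Tnnt2, Ckm and Myh3 were listed at 0. The 2 above 0.1 RPKM were Mylpf, a fast-muscle myosin light chain, at 0.167 RPKM, and the skeletal actin gene Acta1 at 0.15. The clusters were the highest gene-span library for 0 of the 21. Summed levels were 0.492 RPKM in GFP+ clusters, 6.05 in GFP+ colonies, 0.321 and 0.998 in GFP- cells, 8.57 to 48.2 in ESC and 2.59 to 5.89 in MEF. Most of the ESC sum is Mylpf, with 7.38, 17.7 and 42.3 RPKM in ESC replicates 1, 2 and 3.

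Genes of pericytes and vascular smooth muscle, where desmin also occurs, were measured for 7 members. Their summed level was 8.05 RPKM in GFP+ clusters, 2.15 in GFP+ colonies, 6.28 and 21.1 in GFP- cells, 14.3 to 27.0 in ESC and 138 to 432 in MEF. Most of the MEF sum came from 2 genes. The smooth muscle actin gene Acta2 had 2.38 RPKM in GFP+ clusters, 1.97 and 9.68 in GFP- cells and 171, 171 and 65.2 in MEF. Tagln, a calponin-related gene, had 3.87 RPKM in GFP+ clusters, above its 0.225 and 1.63 in GFP- cells and below its 241, 178 and 57.3 in MEF. The pericyte receptor gene Pdgfrb had 0.124 RPKM in GFP+ clusters, below its 1.45 and 4.23 in GFP- cells and its 8.1 to 10.4 in MEF. Notch3, a receptor gene of pericytes and smooth muscle, went the other way against MEF, with 1.3 RPKM in GFP+ clusters, 2.56 and 1.78 in GFP- cells and 0.243, 0.209 and 1.11 in MEF.

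Among intermediate filament genes and partners of desmin, 2 of 14 had their highest gene-span level in the clusters. Over all tested genes this share was 12.9%, and 10 of the 14 were tested. Cryab, a small heat shock protein that chaperones desmin, had 75.7 RPKM in GFP+ clusters, 9.66 in GFP+ colonies, 7.06 and 14.6 in GFP- cells, 3.1, 1.7 and 1.88 in ESC and 25.6, 26.0 and 18.7 in MEF. Krt19, a keratin of simple epithelia, had 9.73 RPKM in GFP+ clusters, 4.55 in GFP+ colonies, 0.115 and 3.71 in GFP- cells, 0 to 0.483 in ESC and 0.161 to 1.63 in MEF. The keratin pair Krt8 and Krt18 had 4.29 and 11.6 RPKM in GFP+ clusters and 30.8 and 34.1 in GFP+ colonies. In GFP- cells Krt8 had 0.13 and 0.342 RPKM and Krt18 had 3.13 and 4.24 RPKM. Vim, the filament of mesenchymal cells, had 21.9 RPKM in GFP+ clusters, close to the lower of its values in GFP- cells (22.8 and 39.0) and below MEF (156 to 223). Synm, a filament partner of desmin in muscle, had 0.0303 RPKM in the clusters.

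**Figure D3:**
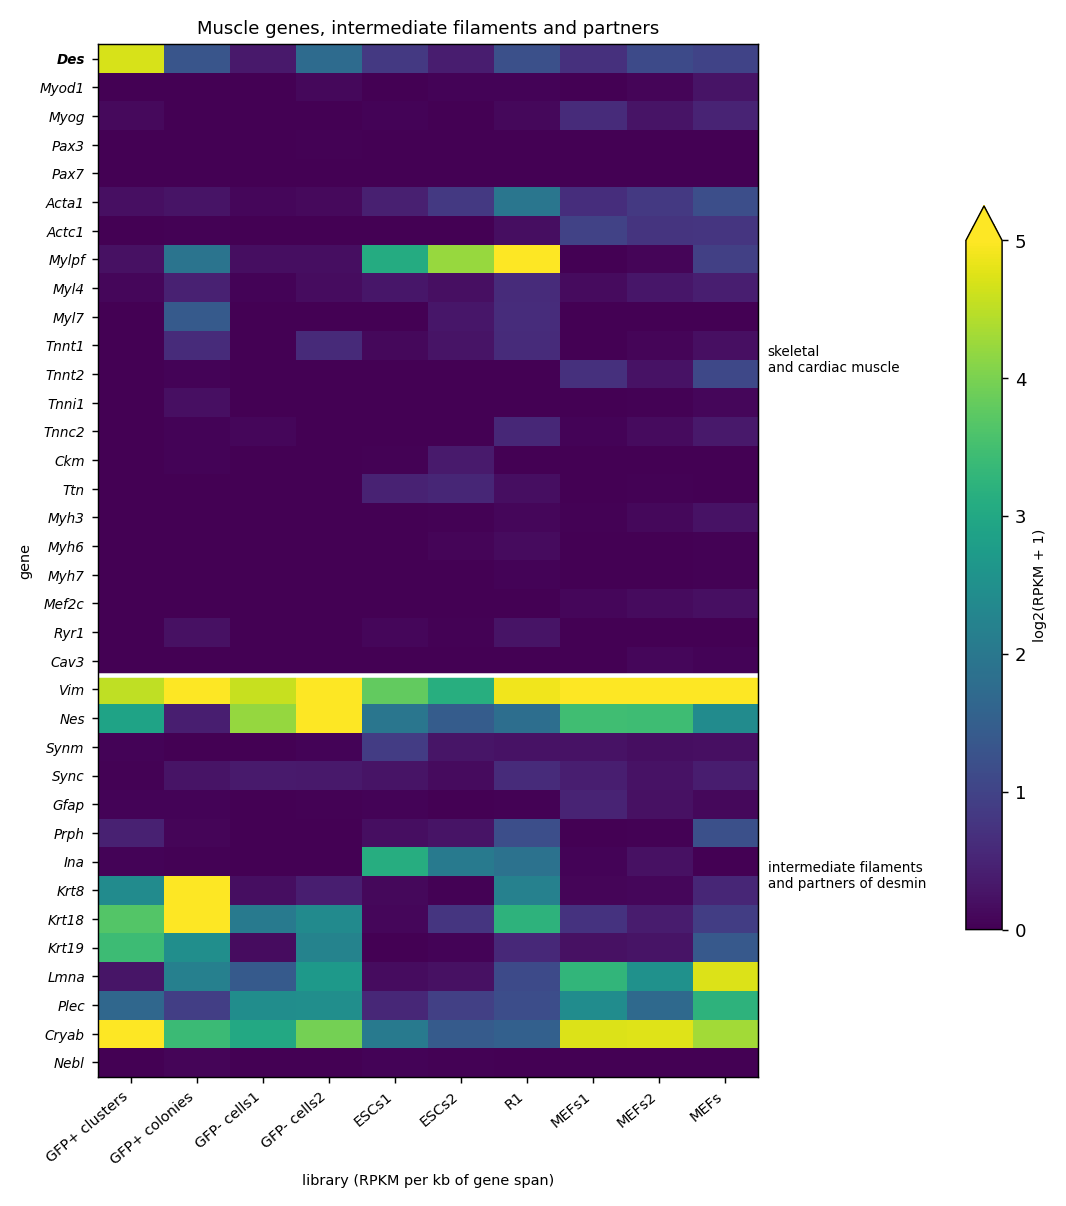
Colour gives log2(RPKM + 1) of Des with skeletal and cardiac muscle genes (upper block) and of intermediate filament genes and partners of desmin (lower block) in the 10 gene-span libraries. In the GFP+ clusters column Des (24.9 RPKM) is the bright cell of the upper block, and Cryab (75.7 RPKM), Vim (21.9 RPKM) and keratins are bright in the lower block.

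Otx2 stood at 10.0 RPKM in GFP+ clusters and was listed at 0.001 in GFP+ colonies. Both GFP- libraries listed it at 0, ESC replicates 1, 2 and 3 had 8.67, 7.83 and 0.47 RPKM, and MEF replicates 1, 2 and 3 had 0.144, 0.0848 and 0.0104. In both ESC and MEF the lowest was replicate 3, which like the colonies lists unmeasured genes at 0.001, unlike the clusters. The part of this difference between libraries in the Otx2 levels was not tested. The clusters were 1.16 times ESC replicate 1, and the 95% Poisson intervals were 9.4 to 10.7 RPKM in the clusters and 8.18 to 9.19 in ESC replicate 1. Its lead over the highest other library, ranked as for Kdr, was rank 1117 of 10647, and nothing is read from this rank either. The difference in log2(RPKM + 1) of the clusters was 3.47 from GFP- cells, 1.14 from ESC and 3.36 from MEF. It bounds no fold against GFP- cells, where the gene was at 0. Leaving out 1 ESC library gave 0.26 to 1.62 for the difference from ESC, with 0.26 without ESC replicate 3. The floors of 3 reads for a gene of this span were 0.0272 and 0.0291 RPKM in GFP- cells and 0.0299 in the colonies. They rest on a span of 10.0 kb, found from the steps of its few low values. With the 16.1 kb of the GENCODE annotation the floors were 0.0168 and 0.0181 RPKM in GFP- cells and 0.0185 in the colonies, and the intervals 9.54 to 10.6 RPKM in the clusters and 8.28 to 9.07 in ESC replicate 1.

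Genes active with Otx2 in the anterior embryo were low in the clusters. Of 11 measured anterior and neural genes other than Otx2, 8 were under 0.1 RPKM and 0 reached 1 RPKM, beside a median of 0.233 RPKM over all genes. The highest were Pax6 (0.262 RPKM), a factor of eye and forebrain, and Zic1 (0.26). Hesx1, a factor of the anterior forebrain, was listed at 0 in the clusters and had 2.05 RPKM in GFP+ colonies and 2.92 in ESC replicate 3. Summed levels of the 11 genes were 0.786 RPKM in GFP+ clusters, 3.4 in GFP+ colonies, 2.72 and 5.83 in GFP- cells, 12.7 to 19.1 in ESC and 1.58 to 4.3 in MEF.

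Primed epiblast genes, active in the pluripotent cells where Otx2 acts, were low in every gene-span library outside ESC. In the clusters 4 of 7 were under 0.1 RPKM and 0 at 1 RPKM, and the counts in the colonies were the same. Summed levels of the 7 were 1.28 RPKM in GFP+ clusters, 1.92 in GFP+ colonies and 4.16 and 1.63 in GFP- cells. They were 43.2 to 85.8 in ESC and 1.76 to 2.69 in MEF. The signal gene Nodal was listed at 0 in GFP+ clusters and at 0.001 in GFP+ colonies, had 0 and 0.0263 RPKM in GFP- cells, 7.76 to 10.2 in ESC and 0 to 0.0282 in MEF. The clusters were the highest library for 0 of these 7. Of 7 genes of the anterior visceral endoderm and organizer, the Nodal antagonist gene Lefty1 had 3.12 RPKM in GFP+ clusters and the T-box factor gene Eomes 1.27, against 0 and 0.602 RPKM of Lefty1 and 0.958 and 1.0 RPKM of Eomes in GFP- cells. The endoderm factor gene Foxa2 was lower in the clusters, at 0.0538 RPKM, against 2.08 and 5.25 RPKM in GFP- cells. The homeobox gene Hhex had 0.114 RPKM in GFP+ clusters and 2.74 and 0.148 in GFP- cells. The head inducer gene Dkk1, a Wnt antagonist, was listed at 0 in GFP+ clusters and had 19.3 RPKM in GFP+ colonies, where Otx2 was at the listed 0.001.

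**Figure D4:**
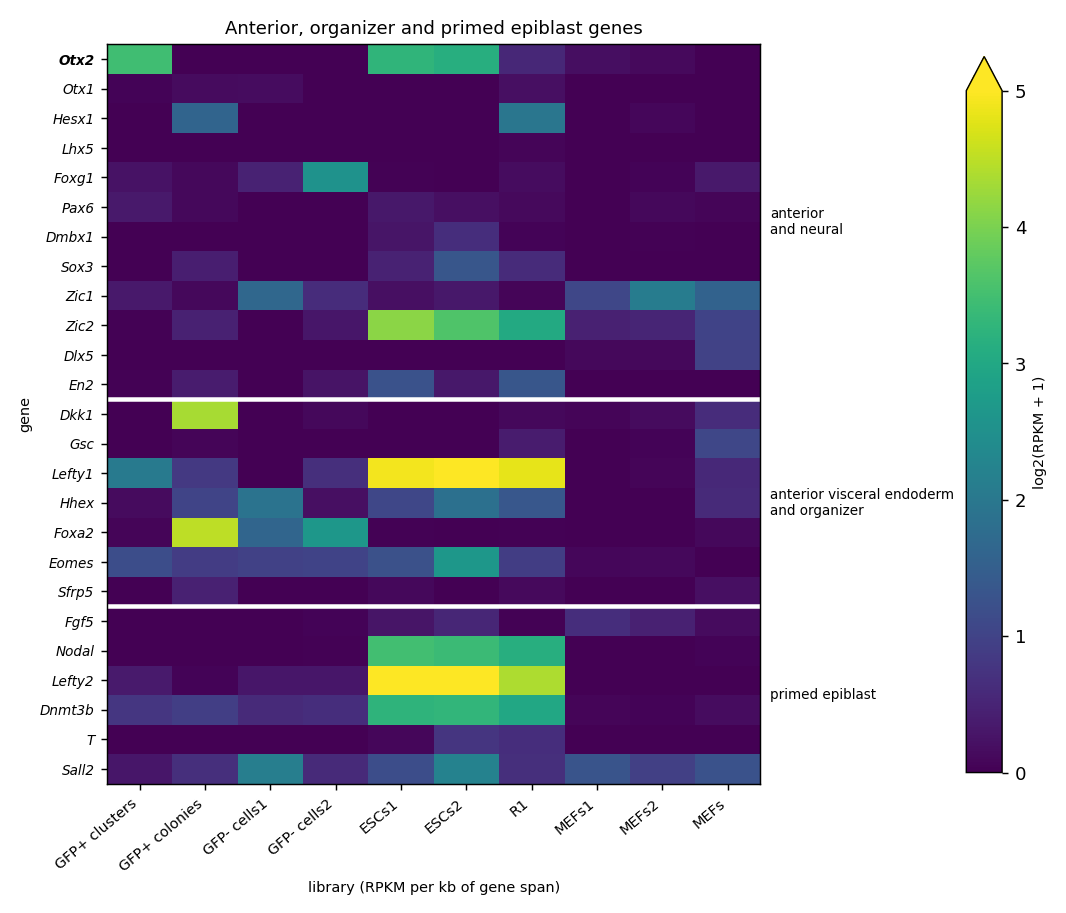
Colour gives log2(RPKM + 1) of Otx2 with anterior and neural genes (upper block), anterior visceral endoderm and organizer genes (middle block) and primed epiblast genes (lower block) in the 10 gene-span libraries. Otx2 is bright in GFP+ clusters and in 2 of the 3 ESC columns, while Zic2, Nodal and Lefty2 are brightest in the ESC columns and Dkk1 and Foxa2 in GFP+ colonies.

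The 4 genes were then compared between groups other than the clusters and colonies, with limma on log2(RPKM + 1) over all 10647 tested genes. Changes are log2 ± SE, adjusted p-values are Benjamini-Hochberg over all tested genes, and a gene was called at an adjusted p under 0.05 and an absolute change of 1 or more. These groups were the ones the 4 genes stood above when they were chosen, so the comparisons are not wholly independent of the choice. All 4 genes passed the filter on low values, 1 RPKM or more in at least 2 of the 13 libraries. Kdr passed it only through the clusters, the library it was chosen on, since MEF replicate 2 was its only other library at 1 RPKM or more. The fit held all 13 libraries. Clusters and colonies thus entered this filter and the trend of spread with mean level, though not the comparisons themselves.

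Between GFP- cells and MEF, limma called 0 of the 4 genes, and 0 had an unadjusted p under 0.05, while 7.62% of all tested genes were called (3.53% higher and 4.09% lower). The change was −0.31 ± 0.24 for Kdr (adjusted p = 0.46), 0.10 ± 0.40 for Des (0.914), −0.11 ± 0.69 for Otx2 (0.952) and −0.10 ± 0.35 for Egfl7 (0.892). For Otx2, changes of more than 1 in either direction lay within 2 SE. The signs for Des and Egfl7 turned with the library left out. Without MEF replicate 3, the low MEF library for Kdr, its change was −0.59 (limma adjusted p = 0.0241), still under the size of 1, and without MEF replicate 2 it did not pass the filter.

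Between GFP- cells and ESC, limma called 1 of the 4 genes, where 22.7% of all tested genes were called (8.35% higher and 14.3% lower). Otx2 fell in GFP- cells, with 2 libraries listed at 0 against 8.67, 7.83 and 0.47 RPKM in ESC (log2 change −2.32 ± 0.69, limma adjusted p = 0.0331). The groups did not overlap, ESC replicate 3 was the low ESC library, and with 2 libraries at 0 the size of the change depends on the pseudocount. The call was lost on leaving out GFP- replicate 1 (adjusted p = 0.112), GFP- replicate 2 (0.091), ESC replicate 1 (0.0841) or ESC replicate 2 (0.0886), and was kept without ESC replicate 3 (−3.21, 3.08e-05). Over all alternatives the change ran over −5.09 to −1.85 and the adjusted p over 3.08e-05 to 0.112. Kdr had a change of 0.43 ± 0.24 (adjusted p = 0.2), Des 0.23 ± 0.40 (0.694) and Egfl7 −0.63 ± 0.35 (0.195). Leaving out 1 library moved the change of Egfl7 over −0.91 (without ESC replicate 2) to −0.29 (without ESC replicate 3), and that of Des over −0.48 to 0.93.

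Between ESC and MEF, limma again called 1 of the 4 genes, where 15.9% of all tested genes were called (7.95% higher and 7.97% lower). Otx2 rose in ESC, to 5.66 ± 4.51 RPKM, against 0.0797 ± 0.0668 in MEF (SD, n = 3 each; log2 change 2.22 ± 0.62, limma adjusted p = 0.0316). All 3 ESC libraries lay above all 3 MEF libraries. The call was lost on leaving out MEF replicate 1 (adjusted p = 0.0791), 2 (0.081) or 3 (0.0722), or ESC replicate 1 (0.0976) or 2 (0.101), and was kept without ESC replicate 3 (3.10, 2.93e-05). Over all alternatives the change ran over 1.74 to 4.32 and the adjusted p over 2.93e-05 to 0.101. This comparison and the last share the ESC libraries.

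Kdr was lower in ESC than in MEF with a change of −0.73 ± 0.21 (limma adjusted p = 0.0369), which passed the p threshold and not the size of 1. All 3 gene-span ESC libraries, at 0.0148 RPKM or less, lay below all 3 MEF libraries, at 0.139 RPKM or more. Kdr was called lower without MEF replicate 3 (−1.01, 0.000742), with a pseudocount of 0.1 (−2.64, 0.00889) and in the libraries with an exact 0 alone (−1.01, 0.0419). These fits kept the filter on low values, which Kdr passed only through the clusters, so the calls are not independent of its choice. With no filter on low values, so that the clusters played no part in its entry, the change was −0.73 with an adjusted p of 0.0536. The limma adjusted p ran over 0.000742 to 0.117 in the alternatives that gave a value. Without MEF replicate 2, and in the fit with a replicate block, Kdr did not pass the filter. Des had a change of −0.13 ± 0.36 (adjusted p = 0.836) and Egfl7 of 0.53 ± 0.31 (0.255), and the groups overlapped in both. The change of Egfl7 was 0.19 without ESC replicate 3 and 0.81 without ESC replicate 2.

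**Figure D5:**
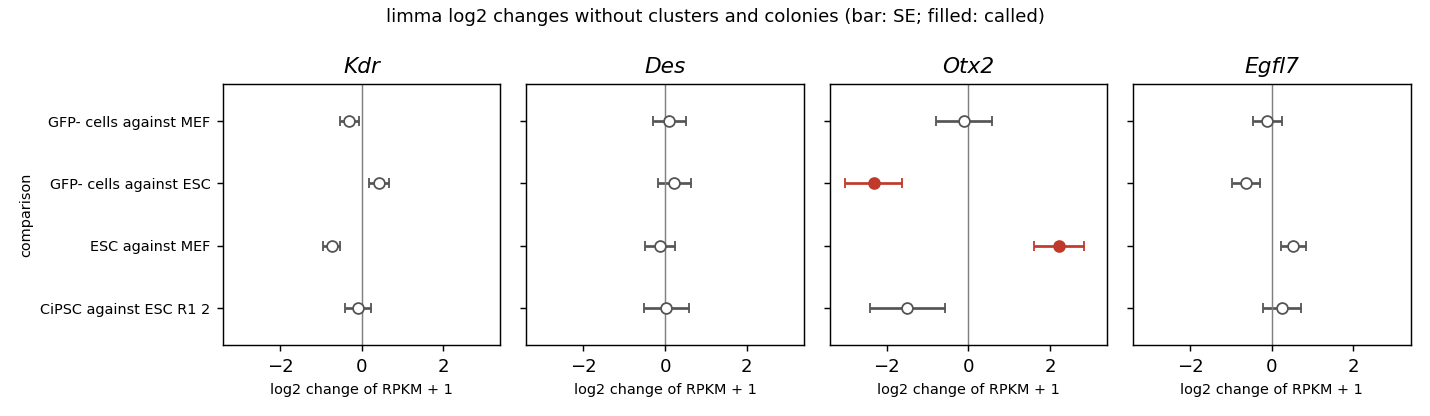
Points are limma log2 changes of RPKM + 1 with bars of 1 SE, for the 4 comparisons between groups other than clusters and colonies. Filled points were called. Otx2 is filled for GFP- cells against ESC (−2.32) and for ESC against MEF (2.22), and the points of Kdr, Des and Egfl7 are open.

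In the 3 libraries on the exonic scale, Egfl7 had 4.96 and 5.35 RPKM in CiPSC lines 6 and 11, against 4.2 RPKM in ESC replicate 4. Des had 2.01 and 1.89 RPKM in CiPSC, against 1.88 in ESC replicate 4. Kdr had 0.0179 and 0.0253 RPKM in CiPSC, against 0.0862 in ESC replicate 4. Otx2 had 0.287 and 0.404 RPKM in CiPSC, against 2.78 in ESC replicate 4, and both lines lay below it. Limma called 0 of the 4 genes, and 0 had an unadjusted p under 0.05, where 0.16% of all tested genes were called (0.122% higher and 0.0376% lower). The change of Otx2 was −1.49 ± 0.92 and that of Egfl7 0.24 ± 0.46 (limma adjusted p = 1 for each of the 4 genes). With 1 ESC library in this comparison the spread comes from the other groups, and the adjusted p of Otx2 was 0.0203 without ESC replicate 3, an ESC library that enters only through that spread. In a fit of the 3 exonic libraries alone, with 1 residual degree of freedom, Egfl7 had the same change with an SE of 0.076 and a limma adjusted p of 0.0157, under the size of 1. Kdr and Otx2 did not pass the filter there. With no length-scale term, which sets CiPSC against ESC libraries of both scales, the change of Egfl7 was 1.45 (0.0842). The fibroblast gene Col1a1 had 0.717 and 0.183 RPKM in CiPSC lines 6 and 11, against 6.58 in ESC replicate 4, and its part in the levels of the 4 genes was not tested.

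Other genes of these pathways were called in the same comparisons. Of all tested genes, 3.53% were called higher and 4.09% lower in GFP- cells against MEF, 8.35% and 14.3% in GFP- cells against ESC, and 7.95% and 7.97% in ESC against MEF. Of 8 tested VEGF ligand and receptor genes, 1 rose and 1 fell in GFP- cells against ESC: Vegfa at 2.08 ± 0.62 (limma adjusted p = 0.0342) and Vegfb at −2.26 ± 0.59 (0.02). In ESC against MEF 4 of the 8 fell. They were the lymphatic growth factor gene Figf (−1.96 ± 0.16), Flt1 (−1.18 ± 0.33), Nrp1 (−1.16 ± 0.11) and Nrp2 (−1.05 ± 0.17), with limma adjusted p of 0.000111 to 0.0318. Flt1 in MEF replicate 3 (0.319 RPKM) was close to its 0.249 RPKM in ESC replicate 2. The median change over the 8 was −1.1, against 0.141 over all tested genes. Figf also fell in GFP- cells against MEF (−1.13 ± 0.18, limma adjusted p = 0.00749).

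Of 5 tested endothelial genes, 1 rose and 1 fell in GFP- cells against ESC, with a list median of −0.6. Cd34 changed by 1.92 ± 0.38 (limma adjusted p = 0.00642), and the TGF-beta co-receptor gene Eng by −1.26 ± 0.28 (0.0104). Of 4 tested muscle genes, Mylpf alone was called, lower in GFP- cells than in ESC (−4.06 ± 0.61, limma adjusted p = 0.00179) and higher in ESC than in MEF (3.91 ± 0.54, 0.0015). Of 10 tested intermediate filament genes and partners, 1 rose and 1 fell in GFP- cells against MEF, 3 rose and 1 fell in GFP- cells against ESC (list median 1.0), and 1 rose and 5 fell in ESC against MEF (−0.89). Nes, the filament of neural progenitors, rose in GFP- cells against MEF (1.67 ± 0.43, limma adjusted p = 0.0463) and against ESC (3.04 ± 0.43, 0.00141). Vim fell in GFP- cells against MEF (−2.56 ± 0.51, limma adjusted p = 0.0175), and Cryab rose in GFP- cells against ESC (1.82 ± 0.35, 0.00537).

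Of 4 tested anterior and neural genes, 1 fell in GFP- cells against ESC, as Otx2 did, with a list median of −0.75 against −0.254 over all tested genes. This was Zic2 (−3.44 ± 0.33, limma adjusted p = 0.000206), a zinc-finger factor of pluripotent and neural cells. In ESC against MEF Zic2 rose by 2.93 ± 0.30 (limma adjusted p = 0.000296), and Zic1, a related factor, fell (−1.38 ± 0.30, 0.0127). Of 5 tested primed epiblast genes 4 rose in ESC against MEF (list median 3.09), among them Nodal (3.33 ± 0.17, limma adjusted p = 1.11e-05) and the DNA methyltransferase gene Dnmt3b (3.09 ± 0.18, 2.06e-05). ESC replicate 3, the library low in Otx2, had 7.76 RPKM of Nodal and 7.03 of Dnmt3b, against 10.2 and 8.47 in ESC replicate 1 and 9.62 and 8.73 in ESC replicate 2.

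Correlations among the 4 genes over the 10 gene-span libraries include the values they were chosen on, high in the clusters for 3 genes and in the colonies for Egfl7, and so were in part fixed by the choice. On log2(RPKM + 0.1), Kdr and Des had a Pearson r of 0.716 and a Spearman rho of 0.20, and both share the high value in the clusters. Kdr and Egfl7 had r = −0.595 and rho = −0.77, and the other 4 pairs lay between −0.193 and 0.282 in r. These are descriptions over 10 libraries that include replicates of the same groups, differ in depth and list unmeasured genes at 2 different values.

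The genes whose pattern over these 10 libraries was most like each of the 4 were found among 9305 genes by Pearson r. These 10 libraries include the values the 4 genes were chosen on, and the matches were picked on the same values. Patterns that the matches share with the 4 genes follow from that selection, and nothing is read from them. For Kdr the matches were Snx19 (r = 0.962), Rps6ka3 (0.934) and Ano6 (0.931). Snx19 had 5.58 RPKM in GFP+ clusters, 0.749 in GFP+ colonies, 1.38 in each GFP- library, 0.569 to 0.624 in ESC and 1.34 to 1.71 in MEF, so its order of groups was that of Kdr over a much smaller range. For Des they were Cbr4 (r = 0.983), Lrrc14b (0.95) and Zc3h12a (0.949). Lrrc14b had 28.8 RPKM in GFP+ clusters, 1.19 in GFP+ colonies, 0.326 and 6.73 in GFP- cells, 0.168 to 1.08 in ESC and 0.647 to 1.87 in MEF, and shared with Des the higher value in the second GFP- library. For Otx2 they were Senp8 (r = 0.953), Mcl1 (0.949) and Ppid (0.934). Mcl1, a survival factor gene, had 107 RPKM in GFP+ clusters, 39.6 in GFP+ colonies, 50.8 and 34.5 in GFP- cells, 119, 106 and 62.9 in ESC and 31.2 to 56.2 in MEF. For Egfl7 they were Dnajc15 (r = 0.972), Frs3 (0.969) and Rpl27a (0.951). Frs3, an adaptor of growth factor receptors, had 0.0294 RPKM in GFP+ clusters, 1.59 in GFP+ colonies, 0.0118 and 0.0381 in GFP- cells, 0.251, 0.0595 and 1.03 in ESC and 0.00553, 0.0517 and 0.341 in MEF. As with Egfl7, replicate 3 was its highest library in both ESC and MEF.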

How the data were processed

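RNA-seq was measured in 13 libraries, and the authors deposited a single table of RPKM, 1 column for each library. Per the file headers, RPKM is a read number divided by gene length and library size. The submitters' processing notes name TopHat 1.3.0 and mm9. How reads were counted, with which annotation and with what use of strand is not given in the sources used. The 8 rows sharing the identifier Ptprf were left out of 15184, and no column was unused.

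Multiplying RPKM by gene spans of GENCODE M21 gave whole multiples of 1 step for 80.7 to 83.6% of low values in 10 libraries (tolerance 0.05 reads) and for 12.4 to 12.7% in CiPSC lines 6 and 11 and ESC replicate 4, which were taken as exonic. The steps gave depth, estimated reads, 95% Poisson intervals and floors of 3 reads, all of which cover counting error only. ESC replicates 1 to 4 are the libraries labelled ESCs1, ESCs2, R1 and R1 2, and MEF replicates 1 to 3 are MEFs1, MEFs2 and MEFs.

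R 4.3.3 and limma 3.58.1 (trend) were fitted to log2(RPKM + 1) of the 10647 genes that reached 1 RPKM in 2 or more libraries, with 1 coefficient per group, a length-scale term, 6 residual degrees of freedom and Benjamini-Hochberg adjustment. The fit was also run on simulated data, with the same spread for every gene and changes only in genes of high level. That run does not bear on tests of low or variable genes such as these 4. A log2 change of RPKM + 1 understates the change of low genes. The 4 genes, the 13 gene lists and the test were chosen with earlier results of these data known. From each list, the 4 highest genes in clusters, the 4 highest in colonies and any called gene could be named. Markers named for a value at or near 0 (such as Pecam1, Myod1, Synm, Flt4, Vegfc and Pgf), and Gata4, Gata6, Vwf, Tek, Nodal and neighbouring genes, were named after their values were seen. A further listed gene is not reported here. Alternatives were another pseudocount, no filter, median-ratio scaling, subsets of libraries, no length-scale term, a replicate block and leaving out each library.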

Additional observations from a re-analysis of the deposited data

How the results depend on the processing

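Genes called for GFP- cells against MEF numbered 811, and 1391 with a pseudocount of 0.1, 376 with no length-scale term, 533 in only the 10 gene-span libraries, 503 in only libraries with an exact 0, and 540 to 1457 on leaving out 1 library (540 without GFP- replicate 1 and 1457 without GFP- replicate 2). For GFP- cells against ESC they numbered 2415, 3861 with a pseudocount of 0.1 and 2048 to 2870 on leaving out 1 library, and for ESC against MEF 1695, 2590 with a pseudocount of 0.1 and 1315 to 1699. For CiPSC against ESC replicate 4 they numbered 17, 3 with a pseudocount of 0.1, 50 with no filter, 9 with no length-scale term, 165 in only the 3 exonic libraries, and 3 to 43 on leaving out 1 library (3 without either CiPSC line, 43 without ESC replicate 3). Without ESC replicate 4 that comparison gives no value. A replicate block over replicates 1 and 2 gave 329 calls for GFP- cells against MEF, 1839 for GFP- cells against ESC and 1087 for ESC against MEF, and changed no call of Otx2 or Des; Kdr and Egfl7 did not pass its filter on low values. Same-numbered libraries correlated at −0.0417 to 0.0826 in their deviations, so the numbers do not pair them. With a pseudocount of 0.1 the difference of the clusters from GFP- cells, ESC and MEF was 5.79, 7.84 and 5.20 for Kdr, 4.72, 4.95 and 4.63 for Des, and 6.66 from GFP- cells and 5.89 from MEF for Otx2, and that of the colonies was 5.78, 3.93 and 5.54 for Egfl7. With median-ratio scaling it was 4.43 from GFP- cells and 4.88 from ESC for Kdr, 3.67 from GFP- cells and 3.56 from MEF for Otx2, and 3.08 from GFP- cells for Egfl7. Within the libraries that list unmeasured genes at 0.001 it was 2.03 from ESC and 2.84 from MEF for Egfl7. All of these differences kept their sign. The sign of small uncalled changes turned for Des in GFP- cells against MEF (−0.09 with a pseudocount of 0.1, −0.61 to 0.81 on leaving out 1 library), Des in GFP- cells against ESC (−0.48 to 0.93), Des in ESC against MEF (0.05 with no length-scale term, −0.32 to 0.08 on leaving out 1 library) and Egfl7 in GFP- cells against MEF (−0.22 to 0.09). With no filter Otx2 in GFP- cells against ESC missed its call (−2.32, limma adjusted p = 0.0547), and with a pseudocount of 0.1 Kdr was called higher in GFP- cells than in ESC (2.05, 0.0321). Kdr entered that fit only through the clusters, and with no filter it was not called (0.43, limma adjusted p = 0.249). The cause of these shifts was not tested.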

Other observations

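The genes next to the 4 on the chromosome, in the order of RefSeq's gene table, had levels of their own. Pdgfra, the platelet-derived growth factor receptor gene near Kdr, had 21.6 RPKM in GFP+ clusters, 8.45 in GFP+ colonies, 11.0 and 13.7 in GFP- cells, 0.0652 to 0.262 in ESC and 6.17 to 7.21 in MEF, so that the clusters were its highest gene-span library too. Kit, the stem cell factor receptor gene that lies between them, had 0.0137 RPKM in GFP+ clusters, 3.83 in GFP+ colonies, 0.147 and 0.0651 in GFP- cells, 0.537 to 1.55 in ESC and 0.0134 to 0.138 in MEF. Agpat2, beside Egfl7, had 0.0197 RPKM in GFP+ clusters, 4.22 in GFP+ colonies, 1.59 and 0.383 in GFP- cells, 0.262 to 2.31 in ESC and 0.831 to 2.29 in MEF. The colonies were thus the highest and the clusters the lowest gene-span library for Agpat2, and the colonies were also the highest for Egfl7. They were likewise highest for Kit and Tmem165 (3.04 RPKM) near Kdr, and for Dnpep (9.47) and Gmppa (12.4) near Des. Pdgfra was the only measured neighbour highest in the clusters. Of all tested genes, the colonies were the highest gene-span library in 14.0% and the clusters in 12.9%. Notch1, on the other side of Egfl7, had 0.0763 RPKM in GFP+ clusters, 0.149 in GFP+ colonies and 0.04 and 0.878 in GFP- cells. Speg, a muscle kinase gene beside Des, had 0.684 RPKM in GFP+ clusters and 1.25 and 0.124 in GFP- cells. Exoc5, beside Otx2, had 1.61 RPKM in GFP+ clusters and 1.36 and 2.15 in GFP- cells.

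Genes of the placenta were measured as a further lineage. Peg10, an imprinted gene needed for placenta formation, had 63.5 RPKM in GFP+ clusters, 10.4 in GFP+ colonies, 12.1 and 8.0 in GFP- cells, 18.4, 27.9 and 6.72 in ESC and 2.12, 3.59 and 2.5 in MEF. Krt7, a keratin of simple epithelia and trophoblast, had 1.12 RPKM in GFP+ clusters, 0.646 in GFP+ colonies, 0 and 0.0653 in GFP- cells, 0.0129 to 0.269 in ESC and 0.0656 to 0.334 in MEF. The trophoblast factor genes Cdx2 and Hand1 were listed at 0 in the clusters. Gata4 and Gata6, endoderm factor genes, had 1.14 and 2.9 RPKM in GFP+ clusters and 6.82 and 5.39 in GFP+ colonies, and in GFP- cells Gata4 had 0.00124 and 0.0426 and Gata6 had 0.243 and 1.02 RPKM. These values were not tested.

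Marker lists of other cells were counted in the groups tested by limma. Of all tested genes, 3.53% were called higher and 4.09% lower in GFP- cells against MEF, 8.35% and 14.3% in GFP- cells against ESC, and 7.95% and 7.97% in ESC against MEF, and several of the counts that follow are of 1 gene. In GFP- cells against MEF, 3 of 8 fibroblast, 4 of 6 pericyte and smooth muscle and 1 of 4 blood and macrophage genes fell, and 1 of 9 extraembryonic endoderm and 1 of 4 anterior visceral endoderm and organizer genes rose, the last 2 both being Foxa2 (2.09 ± 0.25, adjusted p = 0.00139). In GFP- cells against ESC, 9 of 10 pluripotency and 4 of 5 primed epiblast genes fell, and 6 of 8 fibroblast and 6 of 9 extraembryonic endoderm genes rose. In that comparison 1 of 6 pericyte and smooth muscle genes rose and 2 fell, and 1 of 4 anterior visceral endoderm and organizer genes rose and 1 fell. In ESC against MEF, 9 of 10 pluripotency, 2 of 4 anterior visceral endoderm and organizer and 2 of 3 trophoblast genes rose. There 8 of 8 fibroblast, 5 of 9 extraembryonic endoderm, 3 of 6 pericyte and smooth muscle and 1 of 4 blood and macrophage genes fell.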
